A study of Xenopus laevis with 12 samples.

Results

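Animal caps of Xenopus laevis labelled as injected with wnt3a, chordin and kctd15 mRNA were compared with caps whose label names kctd15 mRNA only. The comparison uses 6 of the 12 arrays of the series, 3 in each group, and the arrays were chosen by their titles. It asks which part of the response to wnt3a with chordin takes place in caps that also received kctd15. The animal cap is the roof of the blastula, which forms epidermis when it is cultured by itself. Chordin binds bone morphogenetic proteins (BMPs) outside the cell and so turns cap cells towards neural tissue. Wnt3a signals through β-catenin, gives that tissue a posterior character and, at a lowered BMP level, brings on the neural plate border and the neural crest. Border factors such as Pax3, Zic1 and Msx1 act before crest specifiers such as Snai2, Foxd3 and the SoxE factors Sox8, Sox9 and Sox10. Kctd15 is a BTB domain protein known as an inhibitor of neural crest formation, and in zebrafish it inhibits the transcription factor AP-2.

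In every group the mRNA had been injected into the animal pole at the 2-cell stage, and the caps had been cut at stage 9 and collected at stage 15. The remaining 6 arrays hold caps labelled lacZ, the control mRNA from a bacterial gene, and caps labelled wnt3a with chordin, with 3 arrays each. The labels give neither the amounts injected nor the number of caps behind an array. The replicate numbers stand in the titles, and nothing says that they mark separate clutches, so p-values measure only the spread between these samples. All values are the authors' log2 expression values, so 1 unit is a doubling. A gene is called higher or lower at an adjusted p under 0.05 in limma, and "rose" and "fell" are used for such calls only. The fit behind these calls does not pair arrays by replicate number.

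Over the 6 arrays the medians lay between 7.17 and 7.26. Arrays correlated at 0.979 to 0.983 within the kctd15 label, at 0.971 to 0.979 within the triple label and at 0.870 to 0.907 between the labels. The 3' minus 5' difference of the control probe sets lay between 0.28 and 0.79 for gapdh, between -2.25 and -1.72 for ef1a and between 10.73 and 11.22 for actin, and the 2 groups overlapped for each control. The lowest quartile of probe set means ended at 5.2, and a difference that starts from that range may understate the change. Some arrays stood apart in marker levels, as the plot of marker levels by array shows. Triple-label array 2 had a mean ionocyte level of 8.05 against 5.69 and 5.82 in triple-label arrays 1 and 3. Its multiciliated level was 7.52 against 6.02 and 6.12, and its muscle level was 7.41 against 5.02 and 5.90. Its notochord and organizer level was 7.04 against 5.59 and 6.05, and its posterior neural level was 8.89 against 6.68 and 8.25. The array labelled kctd15 number 3 had a notochord and organizer level of 5.57 against 4.39 and 4.22 in kctd15 arrays 1 and 2, and a pan-neural level of 7.95 against 6.88 and 6.94. Array 3 of the lacZ label stood apart likewise, at 6.27 against 4.61 and 4.69 in lacZ arrays 1 and 2 for notochord and organizer. Its pan-neural level was 8.43 against 6.68 and 6.95. What set these arrays apart was not tested, and a list count that moved by more than 1.5 times without 1 array is given beside it, apart from moves of 1 gene.

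**Figure D1:**
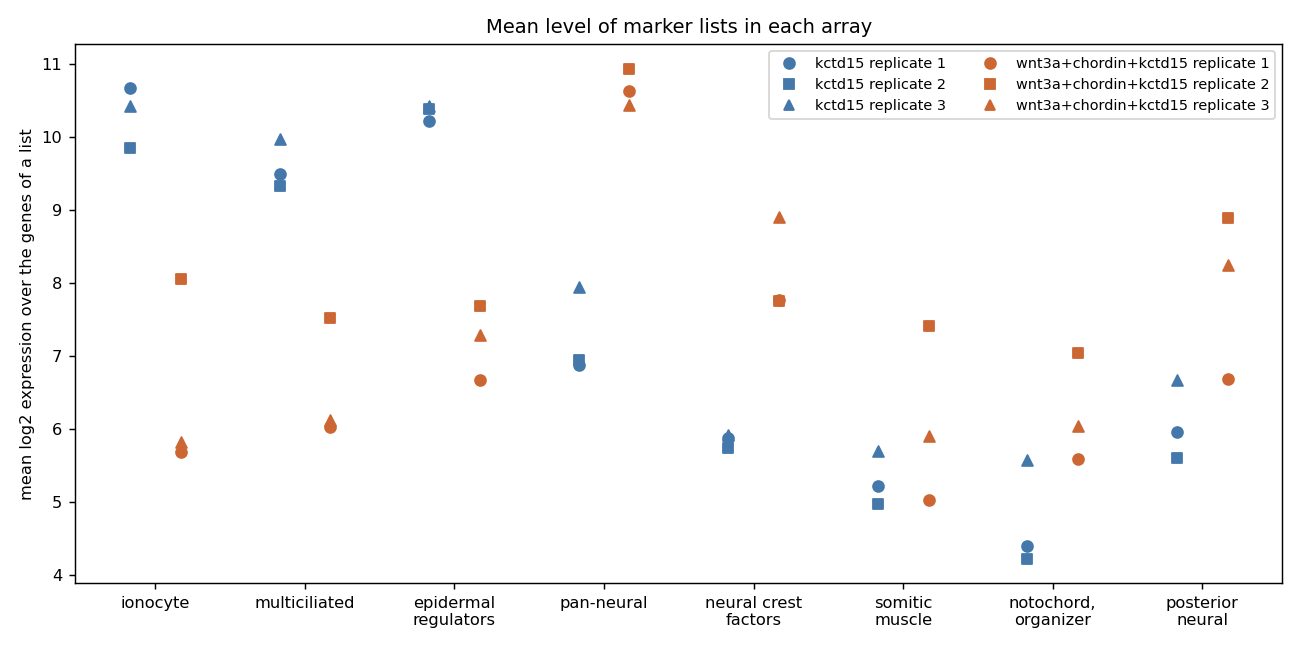
Mean log2 expression over the genes of each marker list (vertical axis) in each of the 6 arrays, by list (horizontal axis), with blue for kctd15 and orange for the triple label and the symbol shape for the replicate number. Triple-label array 2 (orange square) lies above the other triple-label arrays for every list shown except the neural crest factors. The kctd15 and triple-label arrays do not overlap for the first 5 lists.

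The injected genes were read first. wnt3a.S, the injected ligand, had log2 values of 4.94, 3.87 and 4.93 in the arrays labelled kctd15 and of 12.9, 12.85 and 12.02 in the triple-label arrays. It rose by 8.01 log2 units (SE 0.38, adjusted p = 6.11e-07), and the groups lay far apart. chrd.1.S had 5.23, 4.48 and 9.08 with kctd15 and 8.84, 11.14 and 8.87 with the triple label. kctd15 array 3 overlapped the triple-label arrays, and the difference of 3.35 did not pass (adjusted p = 0.112). kctd15.L was low in both groups, with 4.17, 3.77 and 6.43 in the kctd15 arrays and 3.52, 6.77 and 5.18 in the triple-label arrays. It was 10.96 ± 0.26 (SD, n = 3) in the arrays labelled lacZ and 10.66 ± 0.4 (SD, n = 3) in those labelled wnt3a with chordin, which goes against the labels. Whether its probe set reads the injected mRNA is not known here, so the kctd15 labels have no check in these values, and every direction below is one between labels. A probe set for the lac operon, reporter 2, had 13.46, 14.10 and 13.03 in the kctd15 arrays and 5.09, 5.13 and 4.67 in the triple-label arrays. The group means of this reporter were 14.24 with the lacZ label and 13.95 with the wnt3a and chordin label. The 2 groups compared did not overlap, and a two-sided exact permutation test gave p = 0.1, which is the lowest value for 3 against 3 arrays. Each difference below is thus one between labels that also differ in this reporter, and the cause was not tested. The lac operon reporters 1, 3 and 4 differed far less. Their means were 6.65, 3.99 and 4.09 with kctd15 and 6.47, 4.01 and 3.75 with the triple label. With the lacZ label they were 6.39, 3.92 and 4.18.

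In caps labelled with kctd15, wnt3a with chordin went with higher levels of neural genes and of part of the neural crest genes, and with lower levels of epidermal genes. Of 32475 probe sets 7653 rose (23.6%) and 5992 fell (18.5%), 42% in all, and 3099 and 3641 of these moved at least 2-fold. With 1 probe set per gene, 2810 of 11303 genes rose (24.9%) and 2313 fell (20.5%), 45.3% in all, with a median of 0.03 log2 units over all genes. These shares are the background for every list below. Where no member of a list rose or fell in limma, none did so at an unadjusted p under 0.05 either, except 1 blood gene upward and 2 cell cycle genes downward. In bulk caps, fewer cells of a type and less RNA per cell cannot be told apart. The first principal component of all 12 arrays held 69.4% of the variance.

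**Figure D2:**
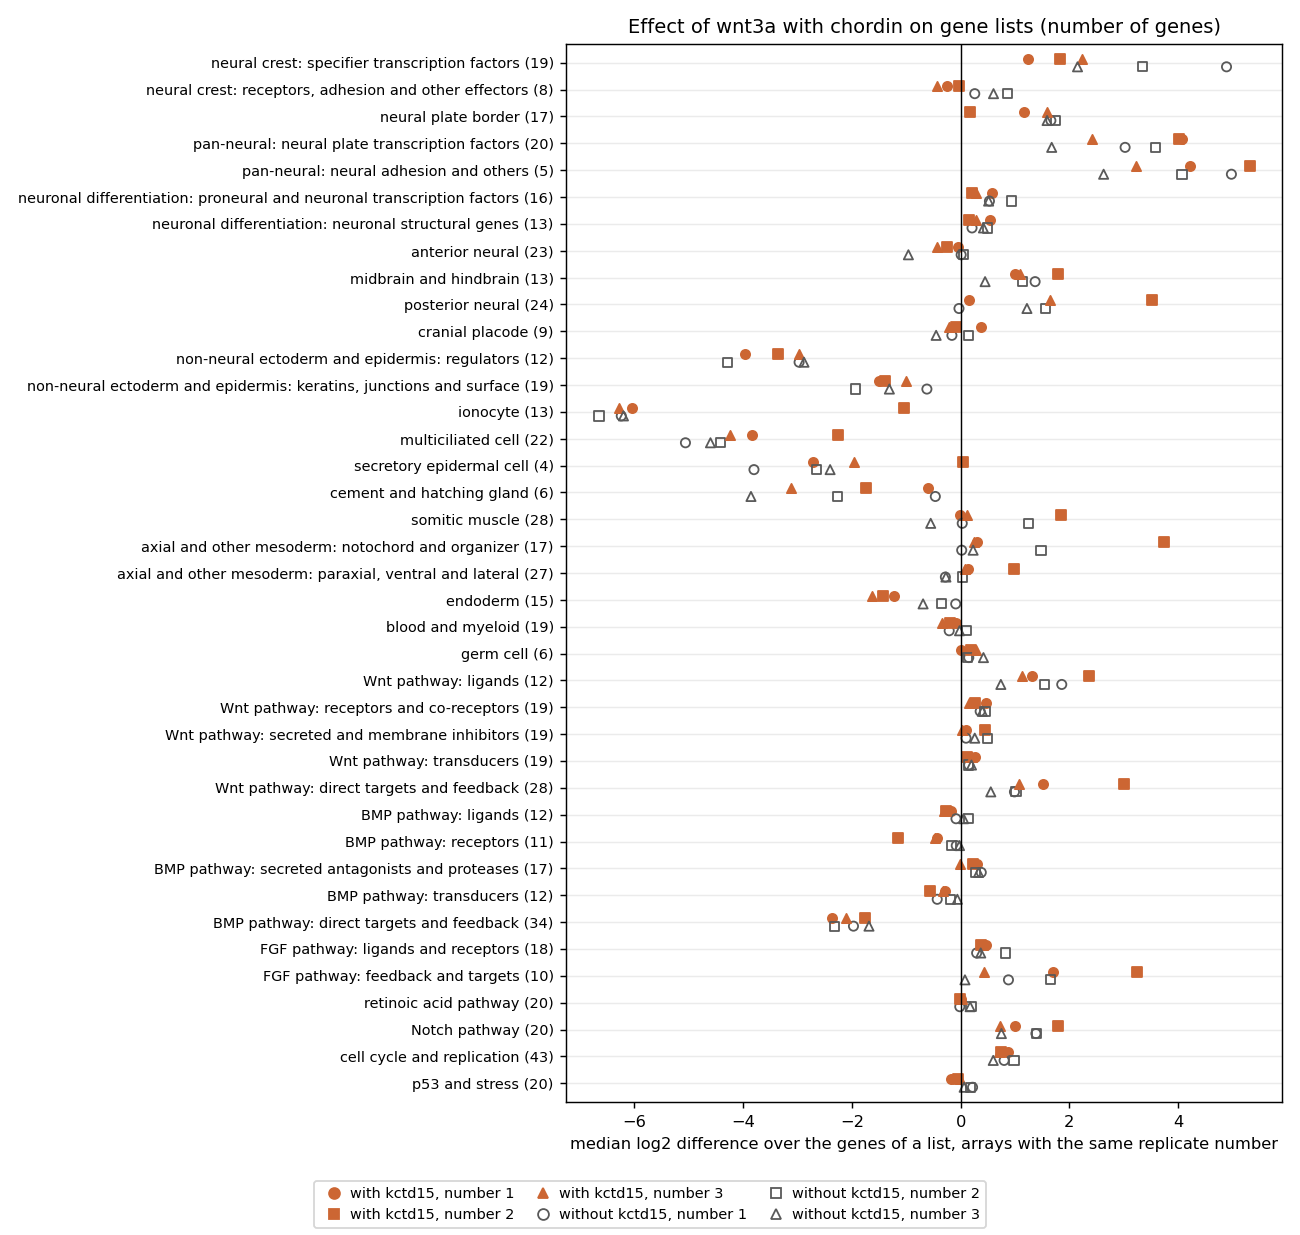
Median log2 difference over the genes of each list (horizontal axis) for arrays with the same replicate number, with filled orange symbols for the triple label minus kctd15 and open symbols for wnt3a with chordin minus lacZ. Pan-neural lists lie above 0 and epidermal, ionocyte and multiciliated lists below 0 in both comparisons, with triple-label array 2 nearest to 0 for ionocytes.

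Many neural crest genes rose, and most of these were specifier transcription factors. Of 27 measured crest genes 16 rose and 3 fell, with a median of 1.44. Of the 19 specifier factors 13 rose and none fell, with a median of 1.57 and replicate medians of 1.24, 1.82 and 2.23. foxd3.L (chromosome 4L, 79876430 to 79878140 in the Xenopus laevis assembly 10.1), a forkhead factor of premigratory crest, had 3.79, 3.74 and 3.86 in the kctd15 arrays and 9.4, 7.87 and 10.72 in the triple-label arrays. The triple-label arrays were all far above, and the gene rose by 5.53 (SE 0.66, adjusted p = 9.15e-05). Its homeolog foxd3.S went from 4.76 ± 0.07 to 9.63 ± 1.64 (SD, n = 3), a rise of 4.88 (adjusted p = 0.000432).

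sox8.L, the SoxE factor that marks crest earliest in Xenopus, had 4.62, 4.72 and 5.02 with kctd15 and 9.38, 9.15 and 11.34 with the triple label. It rose by 5.17 (SE 0.52, adjusted p = 3.04e-05) with no overlap, and its other probe sets rose by 3.41 and 3.99. The other SoxE genes gave smaller differences. sox9.L had 6.57, 6.21 and 6.78 and then 7.82, 7.62 and 7.92, a rise of 1.27 (SE 0.43, adjusted p = 0.0345). That call was lost without kctd15 array 1 (adjusted p = 0.0725) or 2 (0.105) and without triple-label array 1 (0.0787), 2 (0.0581) or 3 (0.0875). sox9.S had 7.05, 6.67 and 7.58 and then 7.8, 8 and 9.81, and its difference of 1.44 did not pass (adjusted p = 0.12), although it passed in the fit with a replicate block (0.0255). sox10.L, a later SoxE factor of migrating crest, had 3.17, 3.41 and 3.73 and then 3.48, 3.69 and 7.86. Triple-label array 3 alone was high, and the difference of 1.57 did not pass (adjusted p = 0.302).

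Among the Snail repressors, which drive the detachment of crest cells, snai1.S had 5.99, 5.38 and 7.83 with kctd15 and 10.99, 10.47 and 11.81 with the triple label. It rose by 4.69 (SE 0.53, adjusted p = 6.55e-05). snai2.L had 3.43, 3.47 and 3.09 and then 4.86, 6.44 and 8.91, a rise of 3.41 (SE 0.81, adjusted p = 0.00633). The triple-label arrays of snai2.L spread over 4 units, with array 3 highest and all 3 above the kctd15 arrays. snai2.S did not pass, at 0.96 (adjusted p = 0.243).

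The other crest factors that rose were tfap2b.L by 3.74, mycn.L by 3.3, mycn.S by 2.9, twist1.L by 2.06, ets1.S by 1.46, tfap2e.L by 1.18 and myc.S by 0.87. Their adjusted p-values ran from 0.00042 for tfap2b.L to 0.0153 for tfap2e.L. The call of tfap2e.L, an AP-2 factor, was lost without kctd15 array 2 (adjusted p = 0.0538) or triple-label array 3 (0.0578). Values of ets1.L (-0.28), myc.L (-0.5) and mitf.L (0.04), the last a pigment cell factor, did not pass. With all 4 arrays of a replicate number left out, the calls of ets1.S, myc.S, mycn.S and snai2.L were lost for at least 1 number. Crest factors had a mean level of 8.91 in triple-label array 3 against 7.77 and 7.75 in arrays 1 and 2.

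Crest receptors, adhesion molecules and other effectors were mixed, with 3 of 8 higher and 3 lower. ednra.S, the endothelin receptor A, had 4.08, 3.72 and 4.19 with kctd15 and 6.5, 6.75 and 7.17 with the triple label. It rose by 2.81 (SE 0.21, adjusted p = 5.29e-06), and its homeolog ednra.L was at -0.02 (adjusted p = 0.97). cdh11.S, a cadherin of migrating crest, rose by 2.51 (adjusted p = 7.26e-05). pdgfra.L, a growth factor receptor, rose by 1.2 (adjusted p = 0.0245), a call lost without kctd15 array 1 (0.0690) or 2 (0.0750) or triple-label array 3 (0.0806). kit.L and kit.S, a receptor tyrosine kinase of pigment cell precursors and also of other tissues, fell by 2.7 (adjusted p = 6.52e-05) and 2.4 (adjusted p = 0.000143). sema3c.S, a secreted guidance cue, fell by 1.06 (adjusted p = 0.00864).

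**Figure D3:**
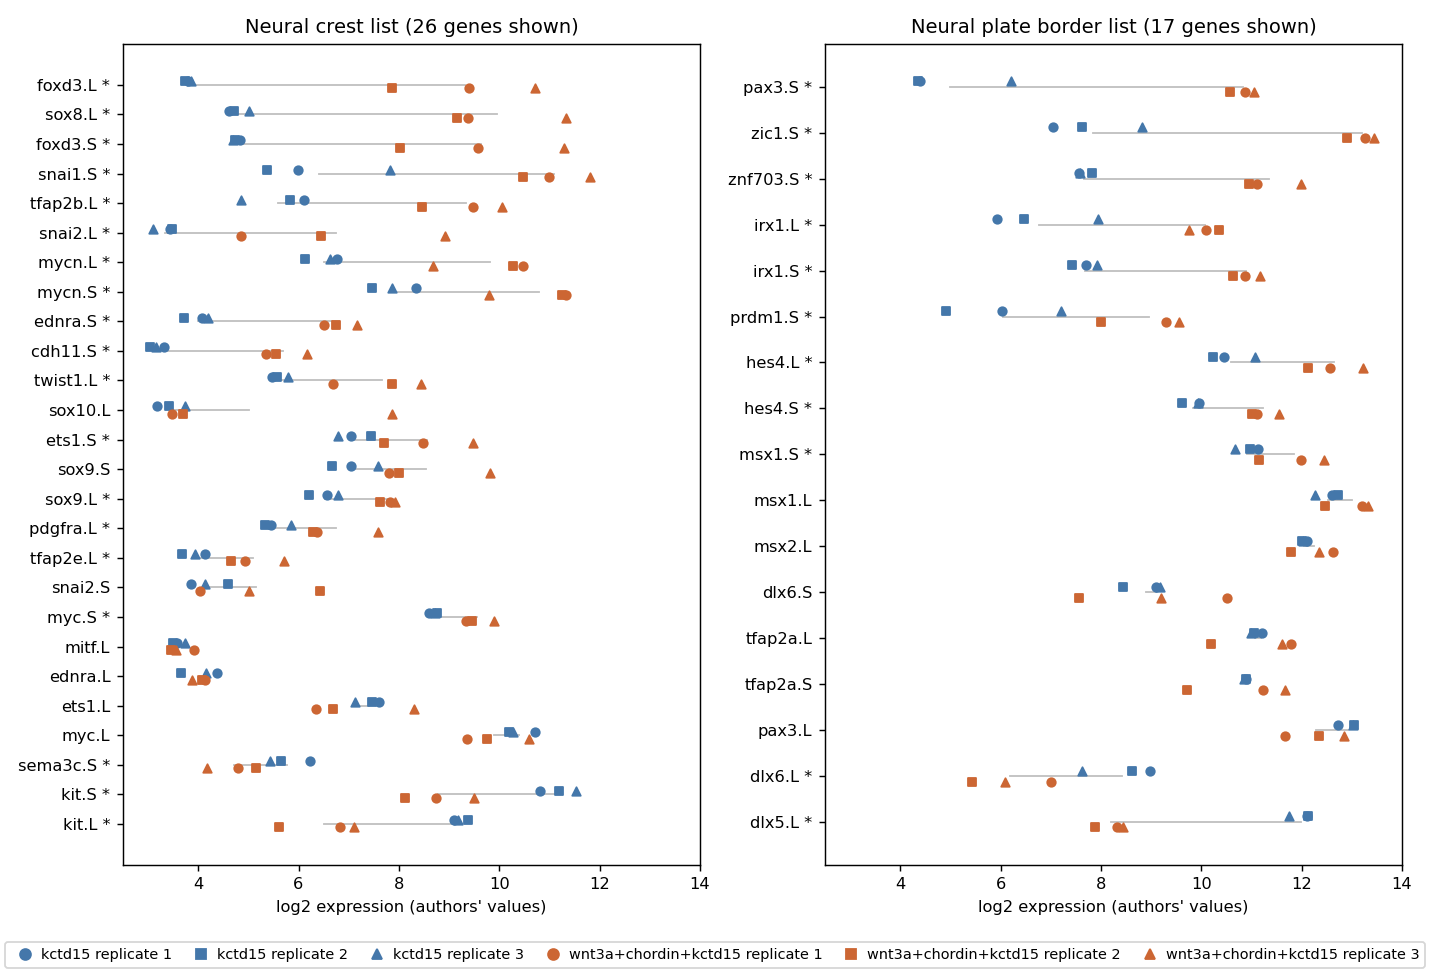
Log2 expression (horizontal axis, the authors' values) of the neural crest genes reported here (left) and the measured neural plate border genes (right) in the 3 kctd15 arrays (blue) and the 3 triple-label arrays (orange), with a grey line between the group means and an asterisk at an adjusted p under 0.05. foxd3.L, sox8.L and pax3.S show wide gaps, and tfap2a.L, tfap2a.S and msx2.L show none.

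At the neural plate border 9 of 17 genes rose and 2 fell, with a median of 0.94 and replicate medians of 1.17, 0.17 and 1.59. pax3.S (chromosome 5S, 112631417 to 112682568), a paired-box factor of the border, had 4.4, 4.36 and 6.2 with kctd15 and 10.87, 10.58 and 11.04 with the triple label. It rose by 5.84 (SE 0.67, adjusted p = 6.62e-05) without overlap. zic1.S, which acts with Pax3 in crest induction, had 7.05, 7.63 and 8.82 and then 13.27, 12.9 and 13.44, a rise of 5.37 (SE 0.73, adjusted p = 0.000196). The probe sets of pax3.L disagreed, and the one with the highest mean, used for the count, gave -0.64 (adjusted p = 0.128, and 0.0064 with the replicate block). The others gave 6.71 (adjusted p = 0.000137), 1.69 (7.99e-05), -1.26 (0.0273) and -0.91 (0.218). The probe set with 6.71 had means of 4.94 with kctd15 and 11.66 with the triple label. So the direction of pax3.L is open. The other members that rose were znf703.S (3.69), irx1.L (3.31), irx1.S (3.21), prdm1.S (2.9), hes4.L (2.06), hes4.S (1.39) and msx1.S (0.94). With all 4 arrays of a replicate number left out, hes4.S, irx1.L, prdm1.S and the fall of dlx6.L lost the call for 1 number.

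The msx, tfap2a and dlx members of the border list, described together after their values were seen, are also expressed in non-neural ectoderm. msx1.S, a BMP-responsive homeobox gene, had 11.12, 10.97 and 10.67 and then 11.98, 11.14 and 12.44 (adjusted p = 0.0204). Its call was lost without kctd15 array 3 (adjusted p = 0.0724) or triple-label array 1 (0.0628) or 3 (0.0704), and in the fit of the 6 arrays alone. msx1.L was at 0.47 (adjusted p = 0.131) and msx2.L at 0.21 (adjusted p = 0.418). tfap2a.L, the AP-2 alpha gene, had 11.2, 11.04 and 10.98 and then 11.78, 10.2 and 11.61, and tfap2a.S had 10.88, 10.88 and 10.84 and then 11.23, 9.72 and 11.66. Triple-label array 2 was the lowest and arrays 1 and 3 the highest for both homeologs, so the groups overlapped. Their differences were 0.12 (95% interval -0.68 to 0.92) and 0.00 (95% interval -0.87 to 0.88), and neither passed. dlx5.L, a Distal-less factor of the non-neural side of the border, had 12.1, 12.12 and 11.75 and then 8.31, 7.87 and 8.43. It fell by 3.79 (SE 0.21, adjusted p = 1.29e-06), and dlx6.L fell by 2.23 (adjusted p = 0.00504). dlx6.S did not pass (0.19, adjusted p = 0.851).

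Pan-neural genes rose with few exceptions, with 22 of 25 higher, none lower and a median of 3.99. The replicate medians were 4.18, 4.2 and 2.58, and the lowest came from number 3, where the kctd15 array had the higher neural level given above. zic5.S had 4.68, 4.11 and 6.26 with kctd15 and 11.81, 11.49 and 11.82 with the triple label, a rise of 6.69 (SE 0.58, adjusted p = 1.42e-05). The other Zic factors of the neural plate also rose, zic2.L by 5.44 and zic2.S by 4.87. sox3.S, a SoxB1 factor that keeps neural progenitors, had 8.03, 8.28 and 9.99 and then 13.36, 13.79 and 12.85, a rise of 4.57 (SE 0.58, adjusted p = 0.000131). Neural adhesion molecules rose too. These were cdh2.L, which encodes N-cadherin, by 5.6 (adjusted p = 0.000257), ncam1.S by 4.27 (adjusted p = 0.000144) and nrcam.L by 3.72 (adjusted p = 0.000293). The probe sets of cdh2.L were called in both directions, so its direction is open.

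Neuronal differentiation genes were mixed. Of 16 proneural and neuronal transcription factors 7 rose and 1 fell (8 and 2 with the replicate block), with a median of 0.29. neurog2.S, a proneural factor, had 5.75, 5.28 and 5.52 and then 7.66, 9.41 and 8.95, a rise of 3.16 (adjusted p = 0.00126). myt1.S, a zinc finger factor of early neurons, rose by 3 and neurod4.L by 1.7. Of 13 neuronal structural genes 5 rose and 1 fell. tubb2b.S, a neural tubulin, had 7.84, 7.92 and 8.56 and then 12.51, 12.57 and 12.8, a rise of 4.52 (adjusted p = 3.01e-05). elavl3.L, a neuronal RNA-binding protein, rose by 4.33 (adjusted p = 0.000479). syt1.L, a synaptic vesicle protein, was high in the kctd15 arrays and fell by 2.56 (adjusted p = 0.00087).

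Along the head to tail axis no forebrain gene rose, while 8 of 13 midbrain and hindbrain genes and 9 of 24 genes of the posterior list did. Of 23 anterior neural genes none rose and 5 fell, with a median of -0.28. Over all genes 24.9% rose and 20.5% fell, so the share lower is near the background and the share higher is below it. The number lower was 3 without kctd15 array 3 or without triple-label array 1 or 3, 2 without triple-label array 2, and 1 without kctd15 array 3 and triple-label array 2 together. otx2.L, a forebrain and midbrain factor, had 8.25, 9.04 and 10.1 with kctd15 and 6.08, 4.06 and 6.57 with the triple label. It fell by 3.56 (SE 0.97, adjusted p = 0.0126), and without triple-label array 2 it did not pass (adjusted p = 0.0508). hesx1.L fell by 2.06 (adjusted p = 0.00511) and six3.L by 1.57 (adjusted p = 0.00907), both of them genes of the anterior neural plate. six3.L did not pass without kctd15 array 3 and triple-label array 2 (adjusted p = 0.0778). lhx5.S fell by 1.69 (adjusted p = 0.0367), and its call was lost without kctd15 array 2 (0.137) or 3 (0.0710) or without any triple-label array (0.0801, 0.0565 and 0.0992 for arrays 1, 2 and 3), and with array weights.

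Of 13 midbrain and hindbrain genes 8 rose and none fell, with a median of 1.65. hoxb2.S, a Hox gene of the hindbrain, had 3.78, 3.93 and 4.05 and then 11.13, 10.69 and 10.94, a rise of 7 (SE 0.32, adjusted p = 4.77e-07). hoxa2.L rose by 4.86 and hoxa2.S by 5.39, and the triple-label arrays of hoxa2.L differed by less than 0.1. Of 24 posterior genes 9 rose and none fell (14 higher without triple-label array 1), and the replicate medians ran apart, at 0.15, 3.53 and 1.64. hoxb4.S had 5.53, 4.28 and 6.13 and then 9.59, 9.69 and 10.55, a rise of 4.63 (adjusted p = 3.64e-05). meis3.L, a Hox cofactor with a role in hindbrain patterning in Xenopus, rose by 3.8 (adjusted p = 1.70e-06), and cdx4.L, a caudal factor that acts upstream of trunk Hox genes, by 3.75 (adjusted p = 0.0111). hoxb9, a trunk gene, rose by 3.35 (adjusted p = 0.022). That call was lost without kctd15 array 1 (0.0653) or 2 (0.0797) or triple-label array 2 (0.0785) or 3 (0.0688). Of 9 cranial placode genes 1 rose and 2 fell, against 24.9% and 20.5% of all genes. The one that rose was cyp26c1.S, an enzyme that breaks down retinoic acid, by 6.08 (adjusted p = 0.00182). pitx3.S, a lens factor, fell by 1.05 (adjusted p = 0.00023).

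Most epidermal genes fell. Of 12 regulators 10 fell and none rose (2 rose without kctd15 array 3), with a median of -3.73. gata2.L, a GATA factor of non-neural ectoderm, had 12.99, 13.3 and 12.79 in the kctd15 arrays and 6.22, 10.05 and 7.82 in the triple-label arrays. It fell by 4.99 (SE 0.71, adjusted p = 0.000268), with triple-label array 2 nearest to the kctd15 arrays. gata3.S fell by 4.81, dlx3.L by 4 and foxi4.2.S by 3.94. tp63.L and tp63.S, genes of the basal layer regulator p63, were chosen after their values were seen as the members that did not pass, at 0.4 (adjusted p = 0.504) and 0.45 (adjusted p = 0.353). Of 19 keratin, junction and surface genes 12 fell and 1 rose, with a median of -1.78. krt12.4.L, an epidermal keratin, had 14.66, 14.26 and 14.67 with kctd15 and 9.17, 12.67 and 11.94 with the triple label, a fall of 3.27 log2 units (adjusted p = 0.00603). Its level stayed high in triple-label arrays 2 and 3. The junction plakins evpl.L and ppl.L fell by 3.07 and 3.03.

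Genes of the specialised cells of the larval skin fell as well. Of 13 ionocyte genes 11 fell and none rose, with replicate medians of -6.05, -1.05 and -6.29. foxi1.L, the master regulator of ionocytes, had 13.19, 12.92 and 12.96 and then 4.1, 8.98 and 6.55, a fall of 6.48 log2 units (SE 0.89, adjusted p = 0.000206). atp6v1g3.L, a proton pump subunit, fell by 5.96 and ca2.L, a carbonic anhydrase, by 5.83. Triple-label array 2 was the highest of its group for all 3 of these genes. Of 22 multiciliated cell genes 21 fell and none rose, with replicate medians of -3.85, -2.26 and -4.24. ccno.L, a cyclin needed to make the many basal bodies, had 11.08, 11.28 and 11.58 and then 5.18, 8.34 and 5.64, a fall of 4.93 log2 units (adjusted p = 0.000133). tekt2.S, a cilium protein, fell by 5.58 (adjusted p = 0.000233).

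Of 4 secretory epidermal genes 1 fell (2 without triple-label array 2), and that gene was foxa1.S, a factor of small secretory cells, at -2.77 (adjusted p = 0.00883). The count of 1 is near the share of 20.5% lower over all genes. Of 6 cement and hatching gland genes 2 fell, both of them copies of agr2, a gene of mucus-secreting gland cells. agr2.L had 11.84, 11.74 and 11.75 and then 4.46, 6.05 and 4.78, a fall of 6.68 log2 units (adjusted p = 4.82e-06), and agr2.S fell by 6.17.

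Wnt pathway genes were followed by role. Of 12 ligands 7 rose and 1 fell, a count that includes the injected wnt3a.S. wnt11.S, a ligand of β-catenin-independent Wnt signalling, had 4.96, 5.17 and 5.13 and then 10.22, 10.32 and 9.5, a rise of 4.93 (adjusted p = 1.82e-06), and wnt4.L rose by 2.42, which did not pass without kctd15 array 3 and triple-label array 2 (adjusted p = 0.0775). Of 19 receptors and co-receptors 9 rose and 4 fell, with ror2.L higher by 4.06, fzd7.L by 3.28 and fzd10.L by 2.74. Of 19 inhibitors 7 rose and 1 fell. kremen2.S, a Dickkopf receptor that removes Lrp6, rose by 4.42 (adjusted p = 6.10e-07). cer1.S, a secreted inhibitor of Wnt, BMP and Nodal, rose by 4 (adjusted p = 0.000247). Of 19 transducers 4 rose and 2 fell (7 and 3 with the replicate block), with tcf7.S, a nuclear partner of β-catenin, higher by 3.82 and dvl3.L, a Dishevelled gene, lower by 2.57. Without the block, neither transducer count was above the shares over all genes, 24.9% higher and 20.5% lower.

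Of 28 direct Wnt targets and feedback genes 16 rose and 2 fell, with a median of 1.86 and replicate medians of 1.51, 3 and 1.07. axin2.L, the negative feedback gene of β-catenin signalling, had 8.08, 7.33 and 8.25 with kctd15 and 13.12, 12.61 and 13.39 with the triple label. It rose by 5.15 (SE 0.31, adjusted p = 1.73e-06) with a wide gap between the groups. sp5.L, a target of the same pathway, had 7.05, 7.11 and 8.14 and then 12.87, 12.25 and 12.84, a rise of 5.22 (adjusted p = 1.93e-05), and sp5.S rose by 3.9.

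**Figure D4:**
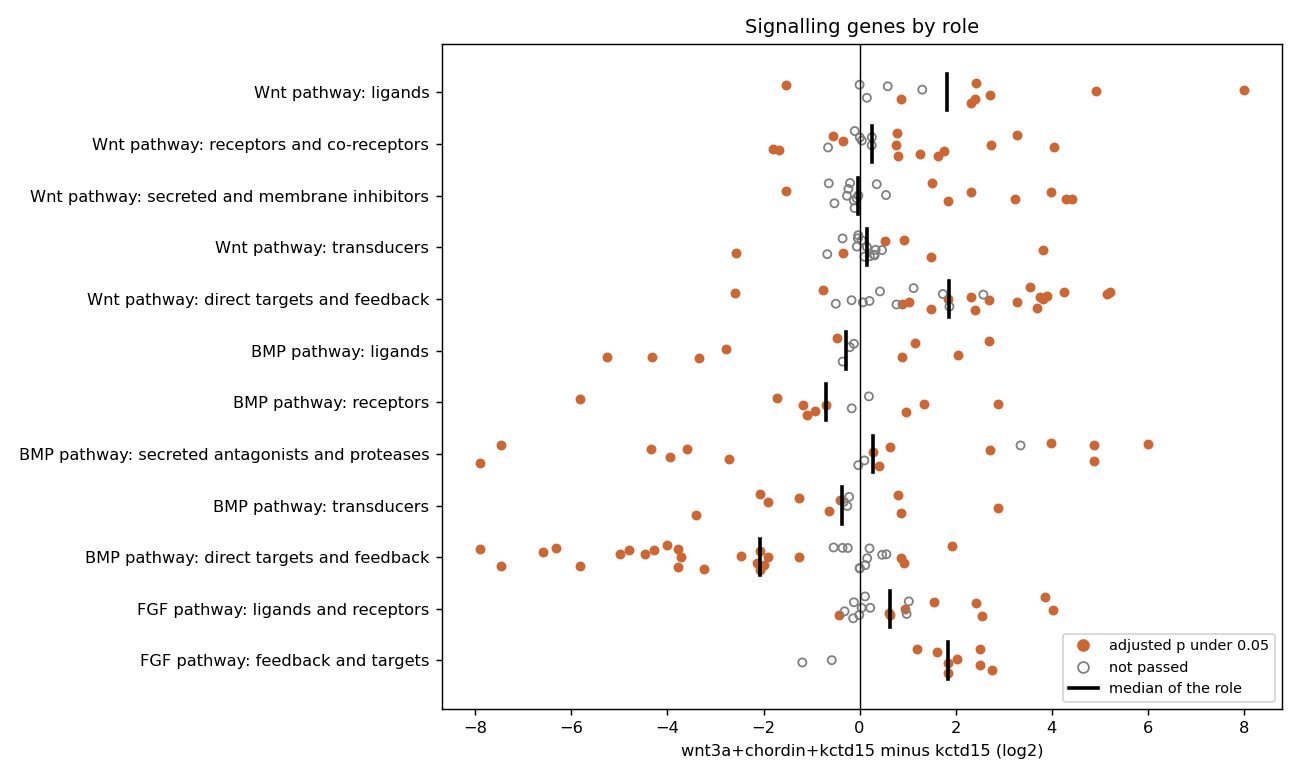
Log2 difference between the triple-label and the kctd15 arrays (horizontal axis) for each measured gene of the Wnt, BMP and FGF pathways by role (vertical axis), filled where the adjusted p was under 0.05, with a bar at the median of the role. Wnt targets and FGF feedback genes have medians of 1.86 and 1.85, and BMP targets a median of -2.07.

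Most BMP targets fell. Of 34 direct targets and feedback genes 21 fell and 3 rose (5 rose without triple-label array 2), with a median of -2.07 and replicate medians of -2.36, -1.76 and -2.1. szl.S, which encodes the BMP feedback inhibitor Sizzled, had 11.99, 12.29 and 11.63 and then 2.92, 6.32 and 2.97, a fall of 7.9 log2 units (SE 0.74, adjusted p = 2.11e-05). tbx2.L, a T-box factor, fell by 6.58 (adjusted p = 2.72e-05). bambi.L, a decoy receptor switched on by BMP, fell by 5.83 (adjusted p = 2.57e-05). Of 12 ligands 4 rose and 5 fell, and 2 rose without kctd15 array 1 or 3 or triple-label array 3. bmp4.S, which acts in ventral ectoderm, had 12.12 ± 0.13 and then 8.78 ± 0.2 (SD, n = 3), a fall of 3.35 log2 units (limma adjusted p = 2.63e-05), and bmp7.1.L fell by 4.32. Of 11 receptors 3 rose and 6 fell, and of 12 transducers 3 rose and 6 fell (3 fell without kctd15 array 2). Among the transducers, smad9.S was lower by 3.4 and the inhibitory smad7.L by 2.07.

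Of 17 secreted BMP antagonists and proteases 8 rose and 6 fell. fst.L, which encodes follistatin, had 5.65, 5.11 and 7.24 with kctd15 and 12.05, 12.28 and 11.66 with the triple label. It rose by 6 (SE 0.73, adjusted p = 9.78e-05). nog.L, which encodes noggin, had 4.26, 3.6 and 4.71 and then 9.23, 8.47 and 9.52, a rise of 4.88 (adjusted p = 5.72e-06), and nog2.L rose by 4.89. The genes that fell in this role include szl.S and szl.L, which are also BMP targets and count in both lists. They are not the only genes that count in 2 BMP roles. With each gene counted once, 21 of 80 BMP genes rose and 38 fell.

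Of 10 FGF feedback genes and targets 8 rose and none fell, with a median of 1.85 and replicate medians of 1.71, 3.24 and 0.43. This count depended on single arrays, and 4 rose without kctd15 array 1, without kctd15 array 2 or without triple-label array 2. dusp6.S, a phosphatase that ends ERK signalling, had 6.4, 5.38 and 7.17 and then 9.2, 9.16 and 8.87, a rise of 2.76 (adjusted p = 0.000334), and etv4.L rose by 2.51. Of 18 ligands and receptors 8 rose and 1 fell (9 and 2 with the replicate block), with fgfr4.L higher by 3.87 and fgf3.L by 4.03. fgf8.L rose by 2.55 (adjusted p = 0.0239). Its call was lost without kctd15 array 1 (0.0657) or 2 (0.0909) or triple-label array 1 (0.0538) or 2 (0.0682).

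Of 20 retinoic acid genes 7 rose and 5 fell (7 and 8 with the replicate block). rdh10.L, an enzyme of retinoic acid synthesis, rose by 2.6 and crabp2.L, a retinoic acid binding protein, by 4.85. The probe sets of crabp2.L were called in both directions, so its direction is open. The breakdown enzyme cyp26c1.S, also in this list, rose by 6.08. aldh1a1.S fell, a call lost without kctd15 array 1 (adjusted p = 0.0625) or triple-label array 2 (0.0757). So the list gives no single direction for synthesis or breakdown. Of 20 Notch genes 11 rose and 2 fell. hes5.2.L, a Notch target, had 4.78, 4.79 and 6.29 and then 8.75, 10.51 and 8.61, a rise of 4 (adjusted p = 0.000985), and the ligand jag1.L rose by 3.87. dll1.L, a Delta ligand, had 12.76, 12.59 and 12.13 and then 10.95, 11.45 and 10.44, a fall of 1.55 log2 units (adjusted p = 0.00391).

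Genes of other germ layers were read to see what else the caps held. Of 28 somitic muscle genes 3 rose and none fell (5 higher with the replicate block). These counts were below the shares over all genes, 24.9% higher and 20.5% lower. The number higher was 1 without kctd15 array 1 or 3 or triple-label array 1, and 5 without lacZ array 3. Without triple-label array 2 the counts were 1 higher and 2 lower, and 18 of the genes lay more than 1 unit higher in that array than in triple-label arrays 1 and 3. rbm24.S, an RNA-binding protein of muscle, rose by 1.82 (adjusted p = 0.0149), and lost the call without kctd15 array 1 (0.0505) or triple-label array 2 (0.0583). Of 17 notochord and organizer genes 5 rose, near the share of 24.9% over all genes. The replicate medians ran apart, at 0.3, 3.74 and 0.24. In triple-label array 2, 8 of these genes lay more than 1 unit above the mean of triple-label arrays 1 and 3, and 2 lay more than 1 unit below it. nodal3.1.L, a Nodal-related ligand and Wnt target of the organizer, had 4.55, 4.52 and 4.54 and then 12.24, 8.16 and 10.64, a rise of 5.81 (SE 0.75, adjusted p = 0.000149). lhx1.L, a LIM homeobox factor of the organizer, rose by 3.19 and admp.S, a BMP-like ligand of the organizer, by 2.69. Of 27 other mesoderm genes 3 rose and 3 fell (5 and 3 with the replicate block, and 5 higher without triple-label array 1), with pcdh8.L, a protocadherin of paraxial mesoderm, higher by 5.79. These counts too were below the shares over all genes.

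Of 15 endoderm genes 1 rose and 8 fell, with a median of -1.37 and replicate medians of -1.22, -1.43 and -1.63. The kctd15 arrays had the higher start, with mean endoderm levels of 6.81, 7.27 and 6.78 against 5.35, 5.49 and 5.67 in the lacZ arrays. Triple-label levels were 5.05, 4.93 and 5.03. For wnt3a with chordin minus lacZ the median was -0.63. gata5.S, a GATA factor of endoderm and heart, had 10.67, 11.25 and 11.5 with kctd15 and 5.08, 5.08 and 4.87 with the triple label, a fall of 6.13 log2 units (SE 0.28, adjusted p = 4.77e-07). hhex.L, a homeobox factor of anterior endoderm, fell by 7.39 (adjusted p = 3.06e-06) and gata6.L by 3.92. gata4.S, chosen after its value was seen as the related factor, fell by 3.73 (adjusted p = 0.000152). Of 19 blood and myeloid genes 6 fell and none rose (7 and 3 with the replicate block), with cebpa.L lower by 3.32. Of 6 germ cell genes 2 rose (1 without kctd15 array 3 and triple-label array 2), where 24.9% of all genes rose. The 2 germ cell genes were grip2.L, higher by 1.05 (adjusted p = 0.00117), and dazl.L, higher by 1.06 (adjusted p = 0.0278). The call of dazl.L was lost without any kctd15 array (0.0672, 0.0652 and 0.0604 for arrays 1, 2 and 3) or without triple-label array 3 (0.102).

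Of 43 cell cycle and replication genes 25 rose and none fell (29 and 2 with the replicate block), with a median of 0.8. mcm4.S, part of the replicative helicase, had 6.15, 6.29 and 7.07 and then 10.28, 9.77 and 9.45, a rise of 3.33 (adjusted p = 5.02e-05). e2f1.L, a transcription factor of the G1 to S step, rose by 2.64. Of 20 p53 and stress genes 2 rose and 4 fell (3 and 7 with the replicate block, and 7 lower without triple-label array 3), with gadd45a.S lower by 2.24. With all arrays and no block, neither stress count was above the shares over all genes, 24.9% higher and 20.5% lower.

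Beyond the lists, the genes with the largest rises included xa-1.L, with 5.18, 4.95 and 5.28 in the kctd15 arrays and 13.25, 10.64 and 13.32 in the triple-label arrays (7.27, adjusted p = 8.69e-05). olfm4.L, a secreted olfactomedin protein, had 6.28, 4.16 and 6.16 and then 12.45, 10.72 and 13.16 (6.58, adjusted p = 2.84e-05). pnhd.L, the secreted Pinhead protein, rose by 5.94 and lrp2.L, an endocytic receptor, by 5.75. Among the largest falls was val.L, with 14, 14.21 and 12.98 and then 4.59, 8.98 and 4.47 (-7.72, adjusted p = 0.000115). slc26a4.3.L, an anion exchanger, fell by 6.25, klf2.S, a Krüppel-like factor, by 6.32, and szl.L by 7.47. For val.L and szl.L triple-label array 2 was again the highest of its group.

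The effect of wnt3a with chordin under the kctd15 label was then set against its effect without that label, wnt3a with chordin minus lacZ. The 2 effects share no array, but they are not independent, since arrays with the same replicate number deviated together from their group means. These deviations correlated at 0.665 to 0.706 between lacZ and kctd15 arrays. Between wnt3a with chordin and triple-label arrays they correlated at 0.576 to 0.649. Without the kctd15 label 2887 genes rose (25.5%) and 2147 fell (19%), 44.5% in all, and over all probe sets 24.2% rose and 17.1% fell, 41.3% in all. Of the genes that rose without the label, 2288 (79.3%) also rose with it, which is 81.4% of those that rose with it. Of the genes that fell without the label, 1769 (82.4%) also fell with it, which is 76.5% of those that fell with it. Over all 11303 genes the effects correlated at r = 0.885 (Spearman 0.868), given as a description, since genes are not independent. The median effect over the genes higher without the label was 0.80 without it and 0.74 with it, and over the genes lower without it -1.33 and -1.19. Over the genes higher with the label the medians were 0.77 without it and 0.85 with it, and over those lower with it -1.09 and -1.23. In each case the median was larger in size for the effect that chose the genes, so these medians do not show which effect was weaker.

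The difference of the 2 effects passed for 91 genes upward (0.805%) and 60 downward (0.531%), 1.34% in all, and for 230 (0.708%) and 141 (0.434%) of all probe sets, 1.14% in all. With the replicate number as a block 593 and 470 probe sets passed. The upward count without 1 array ran from 76, without lacZ array 2 or wnt3a with chordin array 3, to 412 without kctd15 array 3. The downward count ran from 58, without lacZ array 2, to 187 without kctd15 array 3. All arrays but lacZ array 3 and triple-label array 3 moved the upward count by more than 1.5 times when left out. Without the 4 arrays numbered 1, none passed in limma (2716 at an unadjusted p under 0.05), and without those numbered 2 it was 4 and 8, so these calls rest on the full set of arrays. A positive difference means a more positive effect with the kctd15 label.

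**Figure D5:**
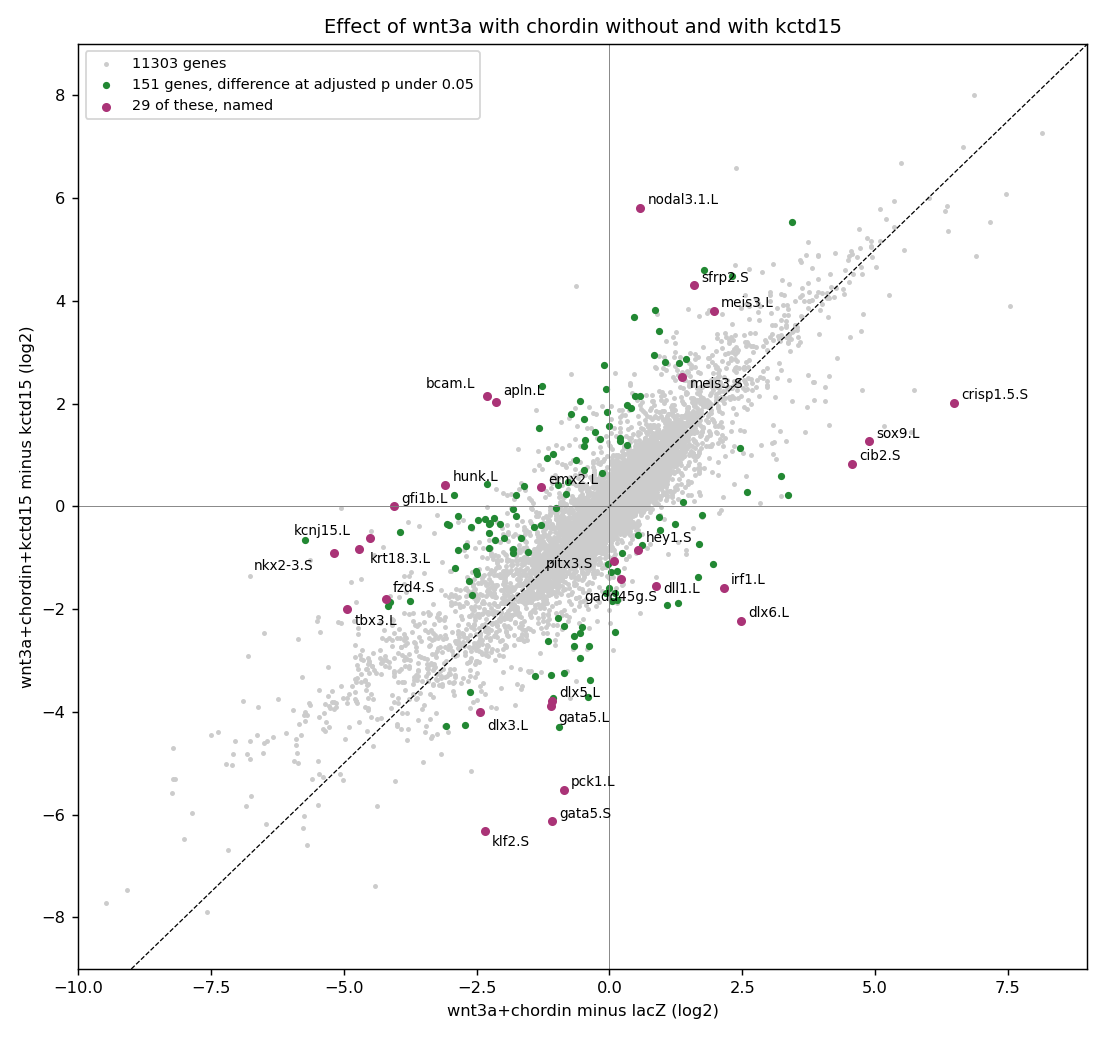
Effect of wnt3a with chordin without the kctd15 label (horizontal axis, log2) and with it (vertical axis, log2) for 11303 genes, with the 151 genes whose difference passed in green and the 29 named ones in purple, and a dashed line of equal effects. Most genes lie along the line, and gata5.S, klf2.S, pck1.L and sox9.L are among those off it.

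Among crest genes, 17 of 27 were called in the same direction with and without the label. Over all 11303 genes 2288 rose in both settings and 1769 fell in both. The difference of the effects was below 0 for 18 of the 27 crest genes and above 0 for 9, and its median over all genes was -0.04. The median effect of the specifier factors was 4.28 without the label and 1.57 with it, while the pan-neural medians were 3.26 and 3.99. Taken gene by gene, the median difference of the effects was smaller, at -1.03 for the specifier factors, and was 0.39 for the pan-neural genes. By replicate number the specifier medians were 4.89, 3.35 and 2.15 without the label and 1.24, 1.82 and 2.23 with it, so that number 3 showed no smaller effect. The mean specifier level was 6.15, 6.29 and 6.87 in lacZ arrays 1, 2 and 3. In the wnt3a with chordin arrays it was 10.36, 9.49 and 9.6. The difference itself passed for sox9.L alone in the crest list, and for 2 higher and 3 lower members with the replicate block. sox9.L had means of 5.54 ± 1.11 with lacZ and 10.42 ± 0.18 with wnt3a and chordin, against 6.52 ± 0.29 with kctd15 and 7.79 ± 0.16 with the triple label (SD, n = 3 each). Its difference was -3.62 (SE 0.6, adjusted p = 0.0232). That call was lost in 7 of 12 fits without 1 array (highest adjusted p = 0.0699). sox9.S had a difference of -4.24 (95% interval -6.38 to -2.1, adjusted p = 0.0732) and passed with the replicate block (0.0159).

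For the other crest specifiers the difference did not pass, and the intervals were wide. Over all 19 specifiers the difference was below 0 for 15 and above 0 for 4, where the median over all genes was -0.04. This tilt was not particular to crest, since 14 of 17 border, 13 of 15 endoderm and 17 of 20 p53 and stress genes were below 0. Other lists leaned the other way, with 20 of 25 pan-neural and 21 of 22 multiciliated genes above 0. foxd3.L gave -1.64 (95% interval -3.72 to 0.44), snai2.L -1.32 (-3.88 to 1.23), sox10.L -3.6 (-7.11 to -0.1) and sox8.L 0.07 (-1.56 to 1.7). On the positive side snai1.S gave 2.32 (0.65 to 4, adjusted p = 0.219) and myc.S 0.84 (0.13 to 1.55). snai1.S passed without kctd15 array 3 and triple-label array 2 (3.35, adjusted p = 0.00853). These are unadjusted intervals, and a difference that does not pass does not show that the effects were alike. In the border list dlx5.L and dlx6.L passed. dlx6.L had means of 7.2 ± 0.31 with lacZ and 9.68 ± 0.88 with wnt3a and chordin, a rise, against 8.41 ± 0.7 with kctd15 and 6.18 ± 0.79 with the triple label, a fall (SD, n = 3 each). Its difference was -4.72 (adjusted p = 0.0154), lost without lacZ array 2 (0.051). dlx5.L fell in both settings, and by more with the kctd15 label (difference -2.7, adjusted p = 0.00456).

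Several differences came with group means that already differed between the kctd15 and the lacZ labels. gata5.S had means of 5.97 ± 0.59 with lacZ, 4.88 ± 0.08 with wnt3a and chordin, 11.14 ± 0.43 with kctd15 and 5.01 ± 0.12 with the triple label (SD, n = 3 each). Only the kctd15 label was high, and the difference was -5.04 (adjusted p = 0.000852). klf2.S and pck1.L, an enzyme of glucose synthesis, had the same order, with differences of -3.97 (adjusted p = 0.000852) and -4.66 (adjusted p = 0.00349). sfrp2.S, a secreted Wnt inhibitor, had 11.12 ± 0.23 with lacZ and 12.71 ± 0.19 with wnt3a and chordin, against 8.05 ± 0.15 with kctd15 and 12.36 ± 0.13 with the triple label (SD, n = 3 each). It rose in both settings, by 1.59 and 4.31, and the difference was 2.71 (adjusted p = 0.000852).

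nkx2-3.S, a homeobox gene, had 10.37 ± 0.23 with lacZ and 5.17 ± 0.09 with wnt3a and chordin, against 6.26 ± 1.1 with kctd15 and 5.35 ± 0.23 with the triple label (SD, n = 3 each). It fell without the kctd15 label only, with a difference of 4.28 (adjusted p = 0.0104). apln.L, which encodes the peptide apelin, fell by 2.14 without the label and rose by 2.03 with it (difference 4.16, adjusted p = 0.00219). nodal3.1.L rose with the label only (difference 5.23, adjusted p = 0.0493), a call lost with quantile normalization, with arrays centred on their medians and in 10 of 12 fits without 1 array (highest adjusted p = 0.12). In the posterior list the Hox cofactors meis3.L and meis3.S rose more with the label, with differences of 1.84 (adjusted p = 0.0283) and 1.14 (adjusted p = 0.0322). Both calls were lost in 8 of 12 fits without 1 array. No pan-neural gene passed for the difference in limma (1 at an unadjusted p under 0.05, downward), and the list's median difference was 0.39.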

How the data were processed

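Per the labels, RNA isolated with TRIzol was copied into biotin-labelled RNA by in vitro transcription and hybridised to an Affymetrix array. The authors deposited log2 expression values, 1 per probe set and array. Partek is named in the submitters' processing notes, without a version, and the background step and normalization are not given there. Arrays hold no read depth, and their number limits the precision. No sequence is shown, since no table of sequences was used here.

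Groups were taken from the titles. Of 32635 probe sets, 96 controls and 64 reporters were left out, and 32475 were tested. One symbol was given for 15495 of them, several for 279 and none for 16701, and 15384 were updated through the annotation of Xenopus laevis assembly 10.1. Homeologs (.L and .S) were kept apart, and a gene with more than 1 probe set was read from the one with the highest mean. Of 173 such list genes, 6 had probe sets called in both directions (pax3.L, cdh2.L, fzd8.S, dkk1.S, aldh1a2.L and crabp2.L).

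All 12 arrays were fitted with 4 group means in limma 3.58.1 (R 4.3.3, lmFit, contrasts.fit, eBayes). Tests were two-sided with Benjamini-Hochberg adjustment over all tested probe sets and a threshold of 0.05. The script was tested on simulated data. Arrays with the same replicate number in the titles deviated together from their group means, with correlations of 0.18 to 0.71 over 18 pairs, so the numbers pair the arrays. The 36 pairs of different numbers gave -0.51 to 0.10. Deviations within a group cancel out, so positive values for the same number force lower ones here, and these are no separate evidence. The main fit leaves the pairing out. With the number as a block, 9891 probe sets rose and 7786 fell for triple label minus kctd15. The fit with the number as a block is given where it changes the call of a value printed for a gene or moves a count by over 1.5 times.

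Members and the 25 gene lists were chosen with earlier results of these data known. Genes were named by a rule: the injected genes and lac reporters, up to 12 genes per direction with the largest differences whose groups do not overlap, up to 8 per direction for the difference of the 2 effects, all crest and border members, and up to 4 called members of each other list (or, where none passed, the one with the smallest p), with any member called for the difference of the effects. Placeholder symbols were left out. One crest list gene counts in the list but is not reported here. Alternatives were a trended variance prior, array weights, quantile normalization, median-centred arrays, no dim probe sets (mean at or under the median), 1 probe set per gene, only the arrays compared, a threshold of 0.01, the replicate block, and leaving out each array, each replicate number, or kctd15 array 3 with triple-label array 2.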

Additional observations from a re-analysis of the deposited data

Results flagged for a closer look

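The difference of the 2 effects (the effect of wnt3a with chordin under the kctd15 label minus its effect without it) passed the threshold in limma for 29 named genes, each of which is given here as a value on the log2 scale. All 29 calls were kept with the replicate number as a block, and none was kept without the 4 arrays numbered 1. Without the 4 arrays numbered 2, 28 of the 29 were lost, and without those numbered 3, 15 were lost. Of the 29, 12 were kept with each single array left out.

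More positive under the kctd15 label and kept with each single array left out were nkx2-3.S (4.28, adjusted p = 0.0104), apln.L (4.16, 0.00219), gfi1b.L (4.05, 0.00656), kcnj15.L (3.9, 0.0125), hunk.L (3.51, 0.00926) and sfrp2.S (2.71, 0.000852). gfi1b.L, a zinc finger repressor of blood lineages, had means of 8.15 ± 0.48 with lacZ, 4.1 ± 0.16 with wnt3a and chordin, 4.29 ± 0.22 with kctd15 and 4.29 ± 0.79 with the triple label (SD, n = 3 each). Only the lacZ label was high for it. kcnj15.L, a potassium channel, had 10.44 ± 0.56, 5.92 ± 0.63, 8.13 ± 0.56 and 7.51 ± 0.46 in the same order of labels.

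More negative under the kctd15 label and kept with each single array left out were gata5.S (-5.04, 0.000852), gata5.L (-2.79, 0.0135), pck1.L (-4.66, 0.00349), klf2.S (-3.97, 0.000852), irf1.L (-3.74, 0.00926) and dlx5.L (-2.7, 0.00456). irf1.L, an interferon regulatory factor, rose by 2.15 without the kctd15 label and fell by 1.59 with it.

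The remaining 17 lost the call without at least 1 array, and the highest adjusted p among those fits follows each difference. Upward these were nodal3.1.L at 5.23 (0.12), bcam.L at 4.46 (0.0925), krt18.3.L at 3.89 (0.0612), tbx3.L at 2.94 (0.12), fzd4.S at 2.4 (0.0711), meis3.L at 1.84 (0.0814), emx2.L at 1.66 (0.0825) and meis3.S at 1.14 (0.0915). Downward they were dlx6.L at -4.72 (0.051), crisp1.5.S at -4.48 (0.108), cib2.S at -3.73 (0.0609), sox9.L at -3.62 (0.0699), dll1.L at -2.43 (0.11), gadd45g.S at -1.63 (0.111), dlx3.L at -1.56 (0.107), hey1.S at -1.39 (0.068) and pitx3.S at -1.15 (0.0831). crisp1.5.S, a cysteine-rich secreted protein, rose by 6.49 without the kctd15 label and by 2.01 with it, and the call of the latter was lost without kctd15 array 1, 2 or 3 or triple-label array 1 or 3 (highest adjusted p = 0.0832).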

How the results depend on the processing

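For triple label minus kctd15, all of the 176 named calls kept their direction under every alternative, and 158 kept the call with each single array left out. Leaving out the 4 arrays numbered 1, 2 or 3 lost 29, 31 or 13 of these calls, leaving out kctd15 array 3 with triple-label array 2 lost 11, fitting only the 6 arrays lost 5, and array weights lost 1. Of 154 other counts under 13 settings 131 stayed within 1.5 times. With 1 probe set per gene, and so fewer features, the counts were 2872 higher and 2353 lower for triple label minus kctd15, 102 and 66 for the difference of the 2 effects, and 2958 and 2167 for wnt3a with chordin minus lacZ. With dim probe sets left out they were 3899 lower, 137 higher and 65 lower for the difference, and 3692 lower, in the same order, with 10 crest genes higher in place of 16. No named call was lost in that setting, so the crest genes missing from this count were left out as dim. The replicate block gave 593 and 470 for the difference and moved neither of the other comparisons by 1.5 times; it ended none of the named calls. For the difference, leaving out all arrays numbered 1 gave 0 and 0 in limma, numbered 2 gave 4 and 8, numbered 3 gave 92 and 58, kctd15 array 3 with triple-label array 2 gave 346 higher, and a threshold of 0.01 gave 31 and 41. Without all arrays numbered 2, 4484 probe sets rose for wnt3a with chordin minus lacZ. Leaving out each array in turn gave 6366 to 7568 higher and 5262 to 5982 lower, 76 to 412 and 58 to 187 for the difference, and 6364 to 7878 and 4835 to 5588 for wnt3a with chordin minus lacZ. In the same fits 13 to 17 crest, 8 to 12 border and 21 to 22 pan-neural genes rose, and 21 to 24 epidermal, 11 ionocyte and 18 to 21 multiciliated genes fell. The cause of these shifts was not tested, apart from the smaller number of features or arrays. Median centring moved the share of upward calls of the difference from 62.0% to 56.2%. Without detection calls, differences that start near the lowest levels are limited by the signal over background.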
